A study of Homo sapiens with 6 samples.

Results

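The 10 genes described here encode the vascular endothelial growth factors VEGFA, VEGFB, VEGFC and PGF, their receptors FLT1 and KDR, the angiopoietins ANGPT1 and ANGPT2, the angiopoietin receptor TEK, and ANGPTL4, an angiopoietin-like inhibitor of lipoprotein lipase. They were taken as every probe set that the array's annotation assigns to exactly 1 of these genes, which gave 31 probe sets of 44988 with a single gene symbol. VEGFA had 10 of them, FLT1 5, ANGPT1 4, ANGPT2 and TEK 3 each, KDR 2, and VEGFB, VEGFC, PGF and ANGPTL4 1 each. The cells were LX-2, an established human hepatic stellate cell line. After 12 h without serum, 3 samples received recombinant human BMP9 (the product of GDF2) at 50 ng/ml and 3 received 0 ng/ml (control), each for 24 h, and every sample was measured on 1 Affymetrix 3′ array. The labels call the 3 samples of a group biological replicates and do not say whether each was grown apart; the spread behind every p-value is that of these samples and may be technical. In a bulk sample, fewer cells with a transcript and less of it per cell cannot be told apart.

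VEGF ligands are secreted and act on tyrosine kinase receptors that are carried mainly by endothelial cells. KDR transmits most of the VEGFA signal, while FLT1 binds VEGFA, VEGFB and PGF and can act as a decoy, and VEGFC acts mainly on lymphatic endothelium. ANGPT1 activates TEK and steadies vessels, and ANGPT2 often opposes it. In liver, stellate cells lie around the sinusoidal vessels, and activated ones are a known source of VEGFA and angiopoietins, while BMP9 is itself a circulating ligand of endothelial cells.

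The question was which of these transcripts differed between BMP9-treated and untreated LX-2 cells. No member probe set passed the test at a limma adjusted p under 0.05, with 0 higher and 0 lower of 31, while 9 had an unadjusted p under 0.05. Over all probe sets, 0.436% passed (60 higher, 0.133%, and 136 lower, 0.302%), and 11.4% had an unadjusted p under 0.05. Of the 9 member probe sets, 3 were of VEGFA and 6 of other members. None of those 6 lay above the guide to background described below in both groups, and their differences had both signs. The most frequent feature was a small difference in VEGFA, of which 6 of 10 probe sets had all 3 BMP9 arrays below all 3 control arrays. Over all probe sets, 17.3% had groups that did not overlap, 8.22% with the BMP9 arrays below and 9.07% with them above. The 10 VEGFA probe sets are assigned to 1 gene on the same arrays and may share probes, so they are not 10 separate measurements. All but 11742212_a_at and 11738414_a_at have names that mark probes also matching other transcripts. Of the other 21 probe sets, 5 had the BMP9 arrays above the control arrays and 1 below. The member differences lay between -0.48 and 0.35 on the log2 scale, and their median absolute size was 0.15, against 0.084 over all probe sets. The median difference was -0.033 over the 31 probe sets and 0.0073 over all.

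The arrays were alike in bulk and differed in their controls. The median log2 value was 3.55 to 3.57 on the BMP9 arrays and 3.55 on the control arrays, and Pearson's r across probe sets was 0.993 to 0.994 within BMP9, 0.992 to 0.993 within control and 0.990 to 0.993 between the groups. The hybridisation controls averaged 9.87 to 10.04 on BMP9 arrays and 10.12 to 10.20 on control arrays. The poly-A controls averaged 5.39 to 5.83 on BMP9 arrays and 6.09 to 6.22 on control arrays. Scaling to the hybridisation controls moved the median difference by 0.21 and gave 9566 probe sets higher and 137 lower, and scaling to the poly-A controls moved it by 0.53 and gave 41768 higher and 29 lower. All differences here are on the deposited scale, relative to those shifts. A fall smaller than the shift turns positive when arrays are scaled that way, and every difference of a member is smaller than the poly-A shift.

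In the fit over all genes, each of 6 direct BMP targets was read by its brightest probe set. Of these, 3 rose (SMAD6, ID3 and ID2) and 3 did not pass (HEY1, SMAD7 and ID1). ID2 passed narrowly there (limma adjusted p = 0.0492), and 0 of its 2 probe sets passed in the fit over all probe sets. The adjusted p-values given next for SMAD6, ID3 and ID1 are those of the fit over all probe sets. SMAD6, an inhibitory SMAD induced by BMP signals, averaged 8.99 ± 0.078 with BMP9 and 5.97 ± 0.17 in control (SD, n = 3) in its brightest probe set, a difference of 3.01 (limma adjusted p = 2.10e-07). ID3, which blocks basic helix-loop-helix factors, differed by 1.63 (limma adjusted p = 7.94e-05). ID1 differed by 0.14 in its brightest probe set and by 3.21 in another (limma adjusted p = 0.626 and 1.55e-05). Of 15 stellate and mesenchymal markers, 6 lay above the guide to background described in the next paragraph and 9 did not, among them LRAT, LUM, TCF21, THY1 and TAGLN. COL1A1 was at 9.79 ± 0.10 with BMP9 and 9.73 ± 0.16 in control and DES at 6.40 ± 0.059 and 6.41 ± 0.042 (SD, n = 3). ACTA2, which encodes smooth muscle actin and marks stellate activation, had a mean of 4.04 ± 0.15 with BMP9 and 3.90 ± 0.082 in control (SD, n = 3). Of the 15, 1 passed: COL3A1, a fibrillar collagen gene, fell by 1.29 (limma adjusted p = 2.35e-05 over all genes).

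The table holds no detection calls, so a guide was taken from 359 probe sets of olfactory receptor genes, which are not usually expressed outside the nose. Their mean log2 values had a median of 3.67 and a 95th percentile of 5.48. Of the 31 member probe sets, 9 lay above that percentile in both groups: 8 of VEGFA and the brighter one of KDR. In ANGPT1, 1 probe set (11726691_a_at) had a BMP9 mean of 5.18, below that percentile, and a control mean of 5.66, above it. The other 21, including every probe set of VEGFB, VEGFC, PGF, FLT1, ANGPT2, TEK and ANGPTL4, lay below it in both groups, so their signal may be background. For them a small difference does not show that the transcript was unchanged. The guide is no detection call, because probe sets differ in affinity. Endothelial markers were read as well, and 4 of 15 lay above the guide. PECAM1 was at 5.47 ± 0.14 with BMP9 and 5.33 ± 0.12 in control, CDH5 at 4.41 ± 0.048 and 4.31 ± 0.21, and VWF at 5.82 ± 0.054 and 5.83 ± 0.0037 (SD, n = 3). The log2 values of the 15 markers summed to 72.5 on each BMP9 array and to between 70.9 and 72.2 on the control arrays, and none of the 15 passed (limma adjusted p 0.363 or more, 1 with an unadjusted p under 0.05). Of the other cell types of liver, 1 of 6 hepatocyte markers, 2 of 6 macrophage markers and 0 of 3 cholangiocyte markers lay above the guide, and none of these 15 passed (limma adjusted p 0.124 or more, 3 with an unadjusted p under 0.05). All samples were of the LX-2 line, and a marker above the guide does not show that its cell type was present. Any part of other cell types in the members' values was not tested.

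Promoter sequences were found for 7 of the 10 members in the RefSeq table of build GRCh38.p14, and not for VEGFA, ANGPT1 or ANGPT2. The 250 bases before the start are shown for VEGFC and ANGPTL4, whose only probe sets had groups that did not overlap, and for KDR, the receptor with signal above the guide. Capitals mark GC boxes (GGGCGG on either strand, the letters bound by SP1 family factors). They also mark ACGTG on either strand, a form of the core of the hypoxia-inducible factor site. The form GCGTG was not searched for.
KDR, chr4:55125596-55125845, minus strand: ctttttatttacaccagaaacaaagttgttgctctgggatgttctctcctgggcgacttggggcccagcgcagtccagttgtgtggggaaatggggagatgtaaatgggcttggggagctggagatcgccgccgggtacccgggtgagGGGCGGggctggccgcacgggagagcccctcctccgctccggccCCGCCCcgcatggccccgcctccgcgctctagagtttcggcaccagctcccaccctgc
ANGPTL4, chr19:8363905-8364154, plus strand: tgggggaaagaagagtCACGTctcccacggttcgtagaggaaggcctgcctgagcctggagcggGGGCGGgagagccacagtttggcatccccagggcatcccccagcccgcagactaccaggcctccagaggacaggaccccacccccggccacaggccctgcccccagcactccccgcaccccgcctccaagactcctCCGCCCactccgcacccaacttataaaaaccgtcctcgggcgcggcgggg
VEGFC, chr4:176792923-176793172, minus strand: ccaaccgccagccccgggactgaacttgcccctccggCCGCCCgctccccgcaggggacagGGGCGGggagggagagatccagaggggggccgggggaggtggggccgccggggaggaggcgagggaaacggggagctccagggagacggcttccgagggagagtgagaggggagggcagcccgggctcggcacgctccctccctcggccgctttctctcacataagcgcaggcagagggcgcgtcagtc

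Each of the 3 windows held 2 GC boxes, at 102 and 58 bases before the start in KDR, 186 and 50 in ANGPTL4, and 213 and 189 in VEGFC. A GC box was found in 42.6% of all 35116 promoters over the same length. The hypoxia core in the form ACGTG occurred once among them, 234 bases before the start of ANGPTL4, and in 18.5% of all promoters. The form GCGTG was not counted, and its reverse complement CACGC stands unmarked in the VEGFC window. The GC-rich SMAD element GGCGCC was in none of the 9 promoter entries of the 7 members and in 16.4% of all promoters. These matches describe the letters in the windows and say nothing of binding in LX-2 cells.

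VEGFA, the principal angiogenic ligand, differed by -0.38 to 0.14 over its 10 probe sets, with 8 differences negative and 2 positive. Its brightest probe set (11725372_x_at) had 8.93, 8.97 and 8.95 on the BMP9 arrays and 9.10, 9.10 and 9.07 on the control arrays. All 3 BMP9 arrays lay below all 3 control arrays, with little spread in either group. The difference was -0.14 (SE 0.073, 95% interval -0.30 to 0.020, limma adjusted p = 0.501).

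The next brightest VEGFA probe set (11725371_s_at) had 8.65, 8.63 and 8.54 with BMP9 and 8.96, 8.86 and 8.79 in control. The groups did not overlap, and the difference was -0.26 (SE 0.082, limma adjusted p = 0.259). It passed only when probe sets with a mean under 7 were left out (limma adjusted p = 0.0116). That left 1676 probe sets, of which 354 passed, and the SE of 11725371_s_at was then 0.060. Over its 13 alternatives apart from the 2 control scalings, its difference kept between -0.31 and -0.22, and the adjusted p ranged from 0.0116 to 0.536.

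The largest VEGFA difference was that of 11755745_x_at, with 6.47, 6.29 and 6.19 with BMP9 and 6.67, 6.66 and 6.77 in control. Its groups did not overlap, and the gap between their nearest arrays was narrower than the range of the BMP9 arrays. The difference was -0.38 (SE 0.091, 95% interval -0.58 to -0.18), or 1.30-fold lower, with a limma adjusted p of 0.133. It passed with an intensity trend and a robust prior (limma adjusted p = 0.0423) and with a minimum mean of 5 (limma adjusted p = 0.0240), and over its 12 alternatives apart from the control scalings the adjusted p ranged from 0.0240 to 0.392.

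The probe set 11741964_s_at had 5.81, 5.88 and 5.64 with BMP9 and 6.08, 5.98 and 6.01 in control, a difference of -0.25 (limma adjusted p = 0.324). Its groups were separate too, as were those of 11741965_x_at (-0.16) and 11742212_a_at (-0.16), whose nearest arrays of the 2 groups lay close together. Not every bright VEGFA probe set was lower. The probe set 11725370_s_at had 5.67, 5.74 and 5.75 with BMP9 and 5.51, 5.51 and 5.73 in control, a difference of 0.14 (limma adjusted p = 0.581). In 11763089_x_at, the groups overlapped at 5.87 ± 0.090 with BMP9 and 5.85 ± 0.017 in control (SD, n = 3). By the maker's convention, names ending in _s_at and _x_at mark probes that also match other transcripts. Every VEGFA probe set above the guide has such a name. Of the VEGFA probe sets with separate groups, only 11742212_a_at does not. The other VEGFA probe set without such a name, 11738414_a_at, had overlapping groups and a difference of -0.021. Both lay below the guide, and neither passed (limma adjusted p = 0.501 and 0.961). Any part of other transcripts in the VEGFA differences was not tested. Which VEGFA transcript each set reads is not given in the sources used here. Averaged over its 10 probe sets, VEGFA differed by -0.13 (SE 0.056, 95% interval -0.26 to -0.0072, limma adjusted p = 0.390 over all genes).

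**Figure D1:**
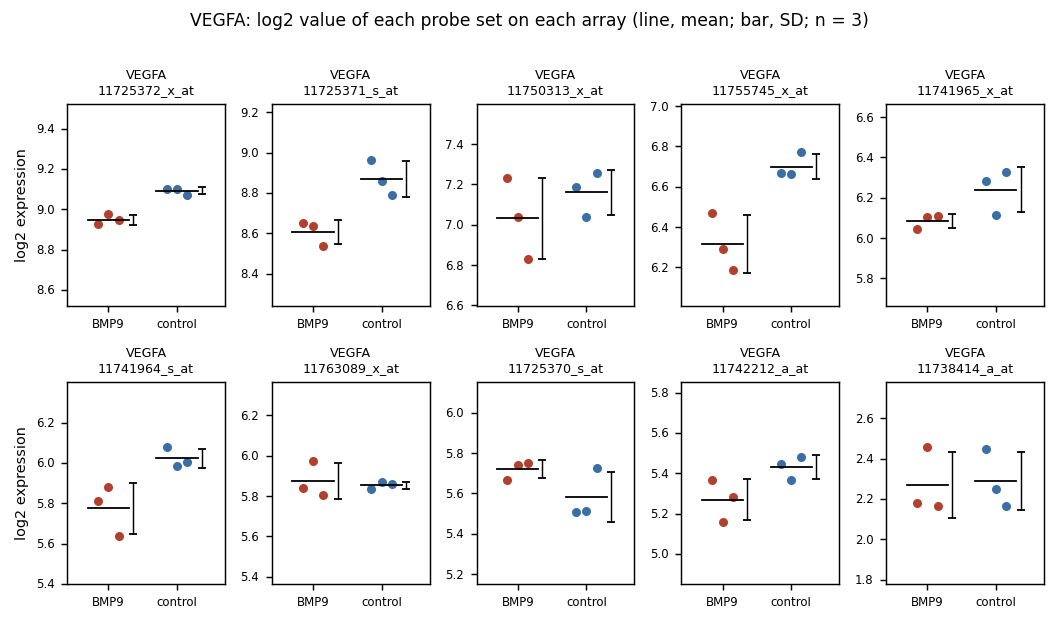
Log2 expression of the 10 VEGFA probe sets on the 3 BMP9 arrays (red) and the 3 control arrays (blue), with the mean as a line and the SD as a bar; every panel spans the same height of the log2 axis. In 6 panels all BMP9 points lie below all control points, and 11725370_s_at and 11763089_x_at have differences of 0.14 and 0.019.

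The other VEGF ligands had 1 probe set each, none above the guide. VEGFC, the lymphatic ligand, had 2.51, 2.73 and 2.59 with BMP9 and 2.86, 2.81 and 2.76 in control. The BMP9 arrays were all lower, by a mean of -0.20 (SE 0.085, limma adjusted p = 0.401). VEGFB, a ligand of FLT1, had 3.11, 3.21 and 2.90 with BMP9 and 3.30, 3.14 and 3.10 in control, with groups that overlapped and a difference of -0.11 (limma adjusted p = 0.724). PGF, the placental growth factor, had 3.24, 3.37 and 3.43 with BMP9 and 3.30, 3.21 and 3.27 in control, again with overlap, and differed by 0.085 (limma adjusted p = 0.737).

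KDR, the main signalling receptor of VEGFA, gave opposite signs in its 2 probe sets. The brighter one (11739315_at) had 5.61, 5.53 and 5.75 with BMP9 and 5.65, 5.89 and 5.80 in control, where the groups overlapped and the difference was -0.15 (SE 0.093, 95% interval -0.36 to 0.051, limma adjusted p = 0.567). The dimmer one (11739316_at) had 3.49, 3.61 and 3.53 with BMP9 and 3.42, 2.94 and 3.23 in control. Its BMP9 arrays lay closely together above a scattered control group, with a difference of 0.35 (SE 0.11, limma adjusted p = 0.283). Without control replicate 2, the lowest array, the difference was 0.22 (limma adjusted p = 0.437). The mean of both probe sets differed by 0.097 (limma adjusted p = 0.549), so the sign of KDR depended on how its probe sets were combined.

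FLT1, the receptor that can act as a decoy for VEGFA, had the smallest differences of the multi-probe members, from -0.038 to 0.10 over 5 probe sets. All 5 had overlapping groups and adjusted p-values of 0.718 to 0.988 in limma. In the brightest, the values were 3.53, 3.86 and 3.64 with BMP9 and 3.49, 3.87 and 3.78 in control, with a 95% interval of the difference from -0.30 to 0.22. Every FLT1 probe set had a control mean between 1.81 and 3.72, within the range of the olfactory receptor guide or below it.

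ANGPT1, the activating ligand of TEK, had the widest spread of all members. Its brightest probe set (11726691_a_at) had 5.15, 5.66 and 4.72 with BMP9 and 5.46, 5.58 and 5.94 in control. The groups overlapped, and the BMP9 arrays spanned nearly a whole log2 unit. The difference was -0.48, the largest among the members, with an SE of 0.20, a 95% interval of -0.93 to -0.034 and a limma adjusted p of 0.400. It was -0.25 without BMP9 replicate 3, -0.72 without BMP9 replicate 2 and -0.058 as the mean of the 4 ANGPT1 probe sets, and it passed in none of these. Another ANGPT1 probe set (11726693_s_at) pointed the other way, with 4.47, 4.60 and 4.50 with BMP9 and 4.24, 4.33 and 4.37 in control. There the groups did not overlap, and the difference was 0.21 (SE 0.080, limma adjusted p = 0.364). The remaining 2 were dim, at 1.98 ± 0.024 with BMP9 and 1.93 ± 0.012 in control, and at 1.80 ± 0.089 with BMP9 and 1.82 ± 0.10 in control (SD, n = 3).

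ANGPT2, the context-dependent antagonist of TEK, differed by -0.077 in its brightest probe set, with 4.28, 4.29 and 4.49 with BMP9 and 4.46, 4.51 and 4.32 in control. The groups overlapped there and in the other 2 probe sets, which differed by 0.15 and 0.23 (limma adjusted p 0.429 to 0.791 over the 3). TEK, the angiopoietin receptor, had 3 dim probe sets with differences of -0.16, -0.19 and 0.30. The positive one (11748375_a_at) had 2.09, 2.11 and 2.23 with BMP9 and 1.90, 1.89 and 1.73 in control, with no overlap (SE 0.084, limma adjusted p = 0.203). It was the dimmest of the 3, and all 3 lay below the median of the olfactory receptor probe sets.

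ANGPTL4, a secreted inhibitor of lipoprotein lipase that responds to hypoxia and to PPAR ligands, was read by 1 probe set. It had 5.07, 4.87 and 4.88 with BMP9 and 4.80, 4.83 and 4.68 in control. All BMP9 arrays lay above the control arrays by a small margin, and the difference was 0.17 (SE 0.088, 95% interval -0.023 to 0.36, limma adjusted p = 0.499). Without BMP9 replicate 1, the highest array, it was 0.11.

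**Figure D2:**
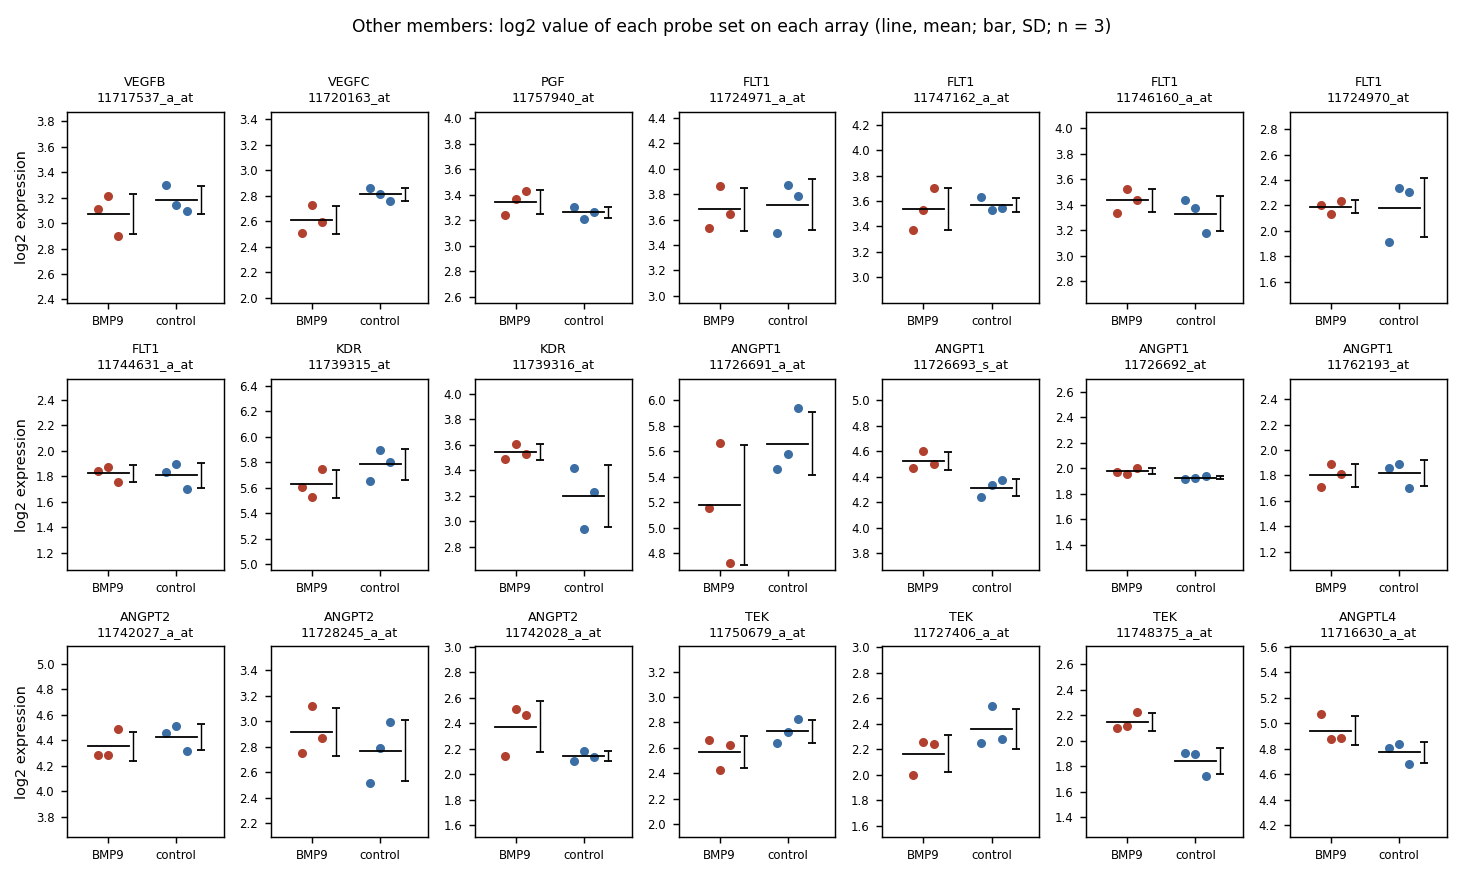
Log2 expression of the 21 probe sets of the other 9 members on the 3 BMP9 arrays (red) and the 3 control arrays (blue), with the mean as a line and the SD as a bar; every panel spans the same height of the log2 axis. The BMP9 points of ANGPT1 11726691_a_at run from 4.72 to 5.66, and those of KDR 11739316_at, TEK 11748375_a_at and ANGPTL4 lie above the control points.

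**Figure D3:**
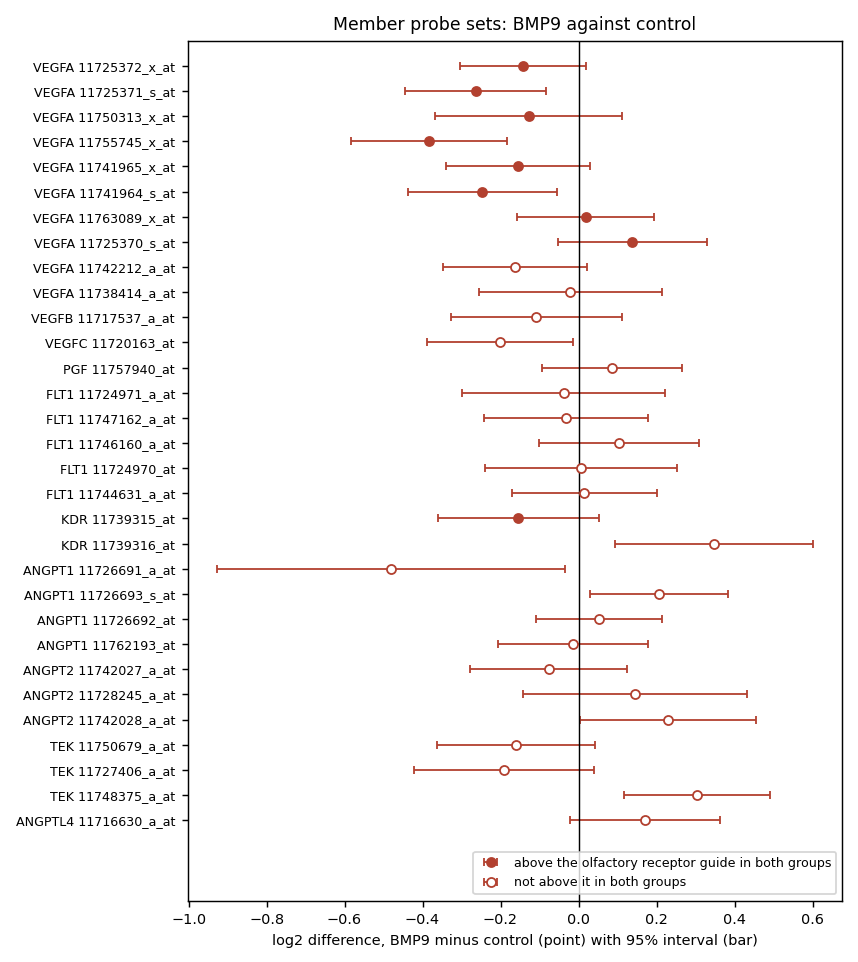
Log2 difference (BMP9 minus control) of each of the 31 member probe sets, with its 95% interval from limma before adjustment; filled points were above the olfactory receptor guide in both groups, and among the open ones ANGPT1 11726691_a_at was above it in control only. The points run from -0.48 (ANGPT1) to 0.35 (KDR), 9 intervals leave out 0, and none of the 31 had an adjusted p under 0.05.

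Genes around this pathway were counted with each gene read by its brightest probe set, where 0.684% of 18132 genes passed (42 higher, 0.232%, and 82 lower, 0.452%) and the median difference was 0.014. An unadjusted p under 0.05 was found for 12.9% of genes, and 18.8% had groups that did not overlap, 10.3% with BMP9 above and 8.49% with BMP9 below. Other family members and co-receptors had 0 of 10 measured genes past the threshold and a median of 0.018. The largest differences were those of the orphan ligand gene ANGPTL6 (0.20), the VEGF co-receptors NRP1 (0.17) and NRP2 (0.072), and the lipase regulator ANGPTL8 (-0.048), with limma adjusted p-values of 0.317 or more. Signal transducers of the receptors had 0 of 16 past it and a median of -0.050. Among them, PLCG1, the phospholipase that KDR recruits, differed by -0.26 (6.53 ± 0.14 with BMP9 and 6.79 ± 0.087 in control, SD, n = 3, limma adjusted p = 0.268), and the adaptors NCK1, SH2D2A and GRB2 by -0.20, -0.15 and 0.11. Unadjusted p-values under 0.05 numbered 1 and 2 in these lists.

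Targets of hypoxia-inducible factor, to which VEGFA and ANGPTL4 also belong, had 0 higher and 1 lower of 14 measured, with a median of -0.0094. The glucose transporter gene SLC2A1 fell by 0.48, with 6.58 ± 0.083 with BMP9 and 7.06 ± 0.084 in control (SD, n = 3, limma adjusted p = 0.0270). That call was lost whichever array was left out (limma adjusted p 0.0510 to 0.137), with averaged probe sets (0.210) and with hybridisation scaling (0.0567), and the difference turned positive with poly-A scaling. The stress gene DDIT4 (-0.43) and the demethylase gene KDM3A (-0.32) had BMP9 arrays below control, and the glycolytic gene PGK1 (0.27) had them above, without passing (limma adjusted p 0.109 to 0.156). PGK1 passed with the minimum means of 5 and 7 and with the trend and robust prior (limma adjusted p 0.0342, 0.00344 and 0.00143), and KDM3A with the minimum of 5 (0.0463). Averaged over probe sets, PGK1 differed by 0.12 and KDM3A by -0.12, and neither passed.

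Around ANGPTL4, lipases and their partners had 0 of 5 past the threshold and a median of -0.0027. Lipoprotein lipase itself, LPL, differed by -0.19, the lipase maturation gene LMF1 by 0.16, the lipase activator APOC2 by -0.17 and the lipase anchor GPIHBP1 by 0.094, none with an unadjusted p under 0.05. PPAR targets had 0 of 6 past it and a median of 0.087. PDK4, a kinase that restrains pyruvate oxidation, differed by 0.37 (limma adjusted p = 0.0786), the fatty acid transporter gene CD36 by 0.44 (0.120), FABP4, a fatty acid carrier gene, by 0.15 and the lipid droplet gene PLIN2 by -0.12. In PDK4 and CD36 the BMP9 arrays all lay above the control arrays, both at low level (3.62 ± 0.099 with BMP9 and 3.24 ± 0.053 in control for PDK4, SD, n = 3). Averaged over probe sets, the difference was 0.17 for PDK4, whose other probe set had -0.039, and 0.19 for CD36.

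Secreted inhibitors of angiogenesis had 0 of 10 past the threshold and a median of 0.0054, with 4 at an unadjusted p under 0.05. ADAMTS1, a protease that sequesters VEGFA, differed by -0.43 (limma adjusted p = 0.0512) and passed under 4 alternatives that kept its sign. Without _x_at and _s_at probe sets it differed by -0.28 (limma adjusted p = 0.248), and averaged over probe sets by -0.35 (0.0719). It passed in neither, nor with the replicate block (0.0987), with any array left out or with either control scaling. With poly-A scaling its difference was 0.10. The proteoglycan gene DCN differed by -0.74 (limma adjusted p = 0.194) in the brightest of 4 probe sets that ran from -0.74 to -0.021. It differed by -0.24 averaged over them and by -0.021 without _x_at and _s_at probe sets (limma adjusted p = 0.948). The PEDF gene SERPINF1 differed by 0.24 and the tumstatin source COL4A3 by 0.18. The 6 direct BMP targets, with 3 higher and 0 lower, had a list median of 0.80, with differences of 0.39 for HEY1 (limma adjusted p = 0.243) and 0.21 for SMAD7 (0.390). Averaged over its probe sets, ID1 differed by 1.22 and passed (limma adjusted p = 0.00205). ID2, at 1.21, lost its call without control replicate 2, without any single BMP9 replicate and with averaged probe sets (limma adjusted p 0.0780 to 0.182).

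**Figure D4:**
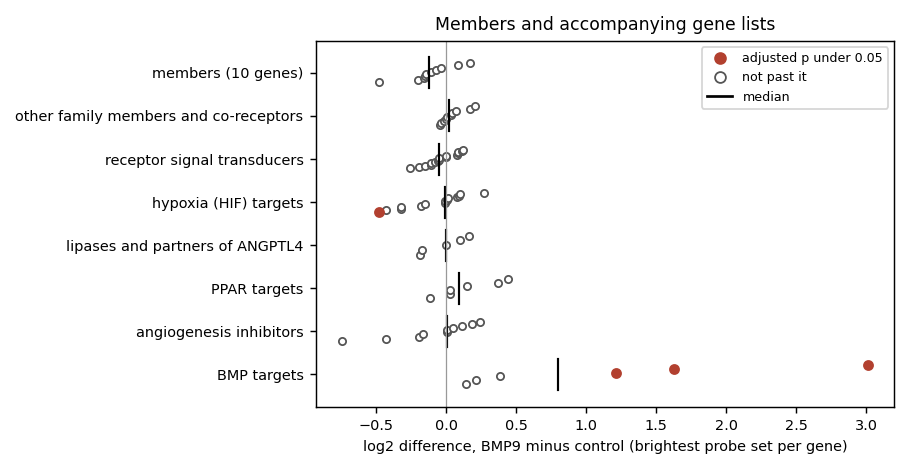
Log2 difference (BMP9 minus control) of each gene's brightest probe set for the 10 members and the 7 accompanying lists; filled points passed at an adjusted p under 0.05 and the vertical line is the list's median. The members lie between -0.48 and 0.17 with none filled, SLC2A1 at -0.48 is filled among hypoxia targets, and 3 BMP targets are filled at 1.21 to 3.01.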

How the data were processed

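RNA from 6 LX-2 samples was hybridised to 1 array each after 3′ in vitro transcription labelling, per the labels' protocols. The authors deposited log2 values for each probe set, and RMA is named in the submitters' processing notes without a version. The log base was inferred from the range of values. RMA usually includes quantile normalisation, which takes out a shift common to most transcripts. Of 49395 probe sets, 102 were array controls, 44988 had 1 symbol, 1832 several and 2473 none; probe sets without a single symbol were left out.

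The 3 BMP9 and 3 control arrays were fitted with limma 3.58.1 in R 4.3.3 (lmFit, then eBayes; no covariate, no filter), with Benjamini-Hochberg adjustment over all 44988 probe sets and a threshold of 0.05. Accompanying lists used a second limma fit over 18132 genes, each by its probe set with the highest mean. Differences are BMP9 minus control, with moderated SE and 95% intervals. The fit was tested on simulated data. The number of arrays limits the precision.

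The members and lists were chosen with earlier results of these data known, so no p is given over a list alone. Text names every member, each list's genes past the threshold and otherwise up to 4 with the smallest p. Alternatives were the replicate block, quantile normalisation, median centring, scaling to array controls, minimum means of 5 and 7, 1 value per gene, other probe set choices, an intensity trend with a robust prior, and each array left out. Promoters came from RefSeq. Figures were drawn with matplotlib 3.10.9.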

Additional observations from a re-analysis of the deposited data

How the results depend on the processing

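No member probe set passed under any alternative except the 2 control scalings, the 2 minimum means and the intensity trend with a robust prior. The member probe sets called numbered 6 of 31 with hybridisation scaling and 26 of 31 with poly-A scaling, all higher. They numbered 1 of 11 with a minimum of 5, 1 of 3 with a minimum of 7 and 1 of 31 with the trend, each lower. Leaving out any array gave 0. Over the table, 196 of 44988 probe sets were called in the comparison as reported. Hybridisation scaling gave 9703 of 44988, poly-A scaling 41797 of 44988 and the trend 405 of 44988. The minimums of 5 and 7 gave 426 of 10403 and 354 of 1676. The brightest probe set per gene gave 124 of 18132, and leaving out _x_at and _s_at probe sets gave 128 of 32513. With an array left out, 81 to 129 of 44988 were called. Of 18132 genes, 124 were called as reported, and 4915 and 16912 with the scalings. The minimums gave 267 of 6744 and 247 of 1216 genes, the trend 285 of 18132, and a left-out array 54 to 78 of 18132. The list genes called were 4 of 67 as reported. They numbered 23 of 67 with hybridisation scaling, 59 of 67 with poly-A scaling and 7 of 33 with a minimum of 5. With an array left out, they numbered 2 to 3 of 67. The minimums test fewer features with re-estimated moderated SEs, and the left-out fits use fewer arrays. Each scaling adds 1 shift to every difference and moves each array by its own amount, so the SEs change too. With poly-A scaling the SE was 0.17 for every member probe set. The part of each in the changed counts was not tested.

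With poly-A scaling, which adds 0.53 to every difference, these turned positive and were called: VEGFA (0.39, 0.40, 0.38, 0.37 and 0.51), VEGFB (0.42), FLT1 (0.49 and 0.50), KDR (0.38), ANGPT1 (0.52), ANGPT2 (0.46), TEK (0.37 and 0.34), ANGPTL8 (0.48), SH2D2A (0.38), LPL (0.35), APOC2 (0.36) and PLIN2 (0.41). SLC2A1 turned to 0.051 and was not called.

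With the replicate number as a block, 151 probe sets, 0 member probe sets, 94 genes and 4 list genes were called; SLC2A1 lost its call (limma adjusted p = 0.0599) and DCN gained one (limma adjusted p = 0.0182). The numbers were not treated as a pairing: deviations of same-numbered arrays correlated at -0.0031, 0.036 and -0.024 across probe sets, and not every array correlated best with its own number. Without 1 array, TEK 11727406_a_at (-0.19) moved to -0.11 or -0.10, TEK 11750679_a_at (-0.16) to -0.088, VEGFA 11742212_a_at (-0.16) to -0.11 and KDR 11739315_at (-0.15) to -0.098; averaged over probe sets, SMAD6 moved to 1.99, ID3 to 1.06, PLCG1 to -0.11 and LPL to -0.014. The 22 member probe sets not above the olfactory receptor guide in both groups are limited by signal over background.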

Other observations

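The array's 23 antigenomic background probe sets, which match no human transcript, averaged 3.71 to 3.78 on the BMP9 arrays and 3.71 to 3.77 on the control arrays, so the floor of the deposited scale did not separate the groups. The actin control probe sets did: their 3′ minus 5′ log2 difference was -4.45 to -4.32 on BMP9 arrays and -4.28 to -4.08 on control arrays (exact two-sided permutation p = 0.1, the smallest that 3 against 3 allows). The same difference for GAPDH was -1.55 to -1.34 on BMP9 arrays and -1.39 to -1.19 on control arrays. Their part in the VEGFA differences was not tested.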
